A study of Mus musculus with 21 samples.

Results

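Of the 37734 genes measured in sorted mouse conventional dendritic cells (cDCs), 10 were taken by name because their products direct T cells: the chains of the IL-12 family (Il12a, Il12b, Il23a, Il27 and Ebi3), the pair Il15 and Il15ra, and Il6, Il10 and Tnf. The rule names the genes and uses no measured value, but they were chosen with earlier results of these data known. The RNAseq libraries came from C57BL/6 mice aged 6 to 8 weeks with no treatment or transgene stated, and each was made from the pooled organs of several animals. CD11c+ cells were sorted as cDC1 (CD24+ and CD11b-, without B220, DX5, Ly6c, Ly6g or F4/80) or cDC2 (CD11b+ and CD24-, without B220), and as immature (CCR7- Esam-) or mature (CCR7+ Esam+). Immature cDC1 gave 4 samples from the spleen and 4 from the thymus, immature cDC2 gave 3 from each organ, and mature cells came from the thymus alone, with 3 samples of each subset. Splenic cDC1 replicates 4 and 5 differed far less than other pairs of libraries and were counted as 1 sample, so 21 libraries gave 20 samples. The labels do not say that libraries came from separate cohorts of mice, so p-values measure only the spread between these samples, which may be technical.

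IL-12 family cytokines are secreted as pairs of chains. The p40 chain (Il12b) pairs with p35 (Il12a) to give IL-12, which drives Th1 and killer T cell responses, or with p19 (Il23a) to give IL-23, which sustains Th17 cells, while EBI3 pairs with p28 (Il27) to give IL-27. IL-15 is carried to the cell surface by its own receptor chain (Il15ra) and handed to neighbouring NK cells and CD8 T cells, IL-6 and TNF are inflammatory cytokines that also act on T cells, and IL-10 restrains antigen presentation and T cell activation. In the thymus, mature CCR7+ cDCs present self-antigens to developing T cells, and IL-15 is known there for its action on NKT cell and CD8 lineage precursors.

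The genes lie on chromosomes 3 (Il12a), 11 (Il12b), 10 (Il23a), 7 (Il27), 17 (Ebi3 and Tnf), 8 (Il15), 2 (Il15ra), 5 (Il6) and 1 (Il10), and all are protein coding in GENCODE M21. The RefSeq promoter table on GRCm38.p6 matched 6 of the 10 symbols. The 250 bases before the RefSeq start site are printed for Il12b, the most abundant of the genes per kilobase in mature thymic cDC1, for Il6 and Ebi3, which hold a decamer of the NF-kB type, and for Tnf, which holds a TATA box. They stand 5′ to 3′ with the start site just after the last base, at chr11:44399813-44400062 on the plus strand (Il12b), chr5:30012864-30013113 on the plus strand (Il6), chr17:55952373-55952622 on the plus strand (Ebi3) and chr17:35202008-35202257 on the minus strand (Tnf). Capitals mark every match, on either strand, to the NF-kB decamer consensus, to the interferon response motif (GAAA, any 2 bases, GAAA), to the AP-1 motif TGANTCA and to TATAAA.
Il12b: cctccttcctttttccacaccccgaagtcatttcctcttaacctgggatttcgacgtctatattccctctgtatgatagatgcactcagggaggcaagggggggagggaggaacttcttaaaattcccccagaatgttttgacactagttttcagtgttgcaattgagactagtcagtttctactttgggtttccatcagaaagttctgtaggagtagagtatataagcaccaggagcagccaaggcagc
Il6: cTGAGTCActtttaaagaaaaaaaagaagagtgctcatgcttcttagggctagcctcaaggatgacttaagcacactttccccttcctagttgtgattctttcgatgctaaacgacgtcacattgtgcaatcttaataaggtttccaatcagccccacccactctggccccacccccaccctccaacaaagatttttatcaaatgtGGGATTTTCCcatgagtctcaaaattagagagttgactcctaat
Ebi3: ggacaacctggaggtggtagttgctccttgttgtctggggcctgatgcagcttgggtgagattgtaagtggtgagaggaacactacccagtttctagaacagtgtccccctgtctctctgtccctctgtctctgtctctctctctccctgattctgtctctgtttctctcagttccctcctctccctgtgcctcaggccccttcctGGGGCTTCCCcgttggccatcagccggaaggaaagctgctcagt
Tnf: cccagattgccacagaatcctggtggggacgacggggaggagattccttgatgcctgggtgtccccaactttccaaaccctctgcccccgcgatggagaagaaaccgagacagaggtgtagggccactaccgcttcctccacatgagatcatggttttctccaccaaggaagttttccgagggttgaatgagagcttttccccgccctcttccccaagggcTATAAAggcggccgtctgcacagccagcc

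The decamer occurred at the same distance, from base -44 to base -35, before the start sites of Il6 and Ebi3. Among 32851 promoter windows of this length, 7.251% held the decamer, 2.977% the interferon response motif, 6.749% TGANTCA and 12.37% TATAAA. The Il6 window also held TGAGTCA from base -249 to base -243, and the Tnf window held TATAAA from base -29 to base -24. One of the Il15ra start sites had TGAGTCA from base -30 to base -24, in a window that overlaps exons and is not printed. No match to these 4 motifs lay in the Il12b window, nor in the windows of the 2 start sites of Il12a. A match is a description of the letters and is not evidence that a factor binds there.

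Each library gave between 14266867 and 40119669 reads on genes, and values are normalized read counts, that is reads divided by 1 size factor per library. The labels were checked against defining genes. The summed level of 5 mature DC markers lay between 403920 and 578175 in mature cells and between 15813 and 51156 in immature ones, and Esam lay at 896 or above in mature cells and at 86.9 or below in immature ones. The 5 cDC1 markers summed to at least 77532 in immature cDC1 against at most 7145 in immature cDC2. In mature cells they summed to 42592 to 46966 against 16928 to 24228, mostly through Irf8, with 3 of 5 lower in cDC2. Xcr1 fell from 19098 ± 2044 (SD, n = 4) in immature to 440.3 ± 164 (n = 3) in mature thymic cDC1. The 5 cDC2 markers summed to at least 39966 in immature cDC2 against at most 3412 in immature cDC1. In mature cells the cDC2 markers summed to 13915 to 17547 in cDC2 against 2109 to 3605 in cDC1, with 4 of 5 higher in cDC2. The NK cell markers were at 6.76 or below in every group other than immature splenic cDC2, where they summed to 11.4 to 49.98, and the neutrophil markers at 24.3 or below throughout.

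**Figure D1:**
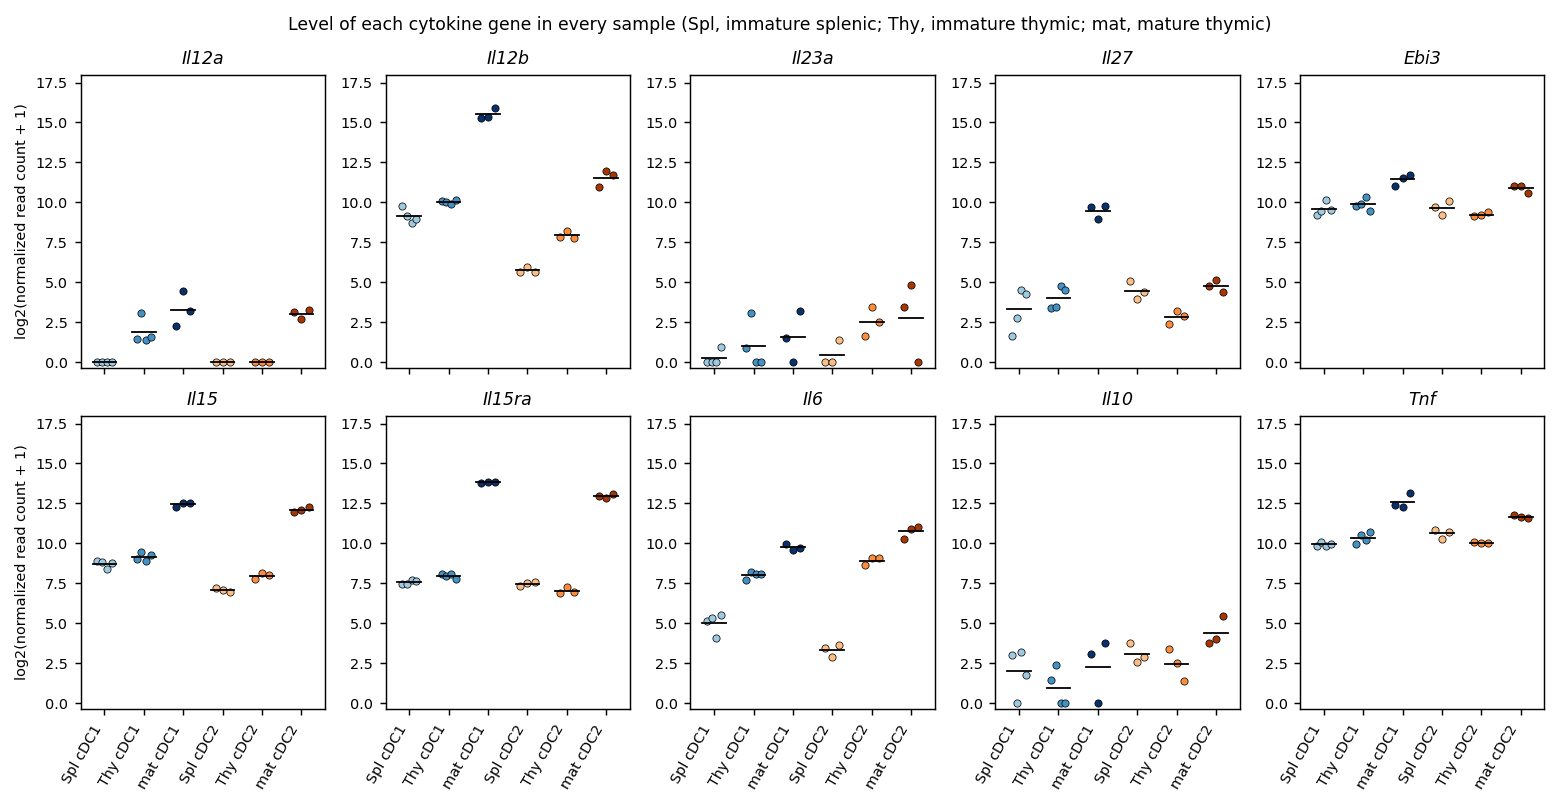
Each panel plots 1 gene, with the log2 of the normalized read count plus 1 on the y axis and the 6 sorted groups on the x axis; each point is 1 sample and each black line is the mean of the plotted values. Mature thymic cDC1 stand highest for Il12b, with samples from 40400.0 to 61276 before the log, while Il12a, Il23a and Il10 stay near the bottom of the scale in all 6 groups.

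The first question was how the cytokine genes differ between mature and immature thymic cDCs. Maturation went with more mRNA for both chains of IL-27, for the shared p40 chain, for Il15 with its carrier Il15ra, and for Il6 and Tnf, in both subsets. The largest rises were those of Il15ra in both subsets and of Il12b and Il27 in cDC1. By contrast, the partner chains Il12a and Il23a stayed at 40 reads per library or fewer, and Il10 did not pass the test. A gene counted as changed at an adjusted p below 0.1 over all 14970 genes tested and an absolute log2 fold change above 1.

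Of the 8 members that passed the filter on low values, 7 were higher in mature than in immature thymic cDC1 and 0 were lower, where 21.3% of all genes tested were higher and 24.5% lower. In cDC2 the same counts were 7 and 0, against 18.6% and 17.0% of all genes. The median log2 fold change over the 8 members was 2.76 in cDC1 and 1.96 in cDC2, beside -0.04 and 0.04 over all genes tested. Il12a and Il23a did not pass the filter and were not tested.

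Il12b encodes the p40 chain. Its values were 40400.0, 40658 and 61276 in mature thymic cDC1 against 1102, 1019, 971 and 1119.7 in immature thymic cDC1. In cDC2 they were 1975, 4019 and 3316 in mature against 222, 297 and 218 in immature cells. Mature and immature samples did not overlap in either subset, and every mature cDC1 sample lay above every mature cDC2 sample. The log2 fold change was 5.47 ± 0.24 (SE, adjusted p = 1.88e-13) in cDC1 and 3.61 ± 0.26 (adjusted p = 6.63e-10) in cDC2, or 44.2-fold and 12.2-fold.

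Il27, the p28 chain, was turned up mainly in cDC1. It read 842, 490.4 and 874 in mature cDC1 against 9.29, 9.99, 26.5 and 22.2 in immature thymic cDC1, and 26.1, 34.1 and 19.6 in mature cDC2 against 4.27, 8.04 and 6.23 in immature thymic cDC2. The groups did not overlap in either subset, although the cDC2 values rested on 4 to 49 reads per library. Maturation changed Il27 on the log2 scale by 5.44 ± 0.60 (SE, adjusted p = 1.27e-07) in cDC1 and 1.94 ± 0.64 (adjusted p = 0.0164) in cDC2. Exons of Il27 overlap those of Apobr on the other strand, and since the strand setting of the counting is not given in the sources used here, reads of the shared stretch cannot be assigned. Apobr moved the other way, from 6732 ± 970.2 (SD, n = 4) in immature to 2429 ± 393 (n = 3) in mature thymic cDC1.

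Ebi3, the partner of p28, changed less. Its values rose from 884, 938, 1286 and 717 to 2116, 3007 and 3332 in cDC1 and from 560.4, 588 and 665 to 2085, 2073 and 1566 in cDC2. No mature sample overlapped an immature one of its subset, and the log2 fold changes of 1.56 ± 0.24 (SE, adjusted p = 1.02e-05) and 1.65 ± 0.25 (adjusted p = 2.01e-05) differed by 0.08, with an interval of 2 SE from -0.61 to 0.78. The antisense gene Gm16712, which overlaps Ebi3, stayed at 46.8 or below in every sample.

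Il15 and Il15ra rose together. Il15ra, which presents IL-15 in trans, went from 272, 248, 268 and 220.3 in immature to 14067, 14529.7 and 14902 in mature thymic cDC1, and from 115, 156 and 121 to 8004, 7289 and 8789.7 in cDC2. The spread between mature cDC1 samples was small beside this change, and the log2 fold changes were 5.84 ± 0.14 (SE, adjusted p = 5.01e-17) and 5.94 ± 0.15 (adjusted p = 4.56e-16). Il15 itself rose from 525, 711, 471 and 620.5 to 4973, 5877 and 5948 in cDC1 and from 219.9, 278 and 259 to 4029.8, 4319 and 5018 in cDC2. Its rise was 9.69-fold in cDC1 (log2 3.28 ± 0.16) and 17.6-fold in cDC2 (log2 4.14 ± 0.17), so that mature cDC1 and mature cDC2 overlapped in Il15 although their immature counterparts did not.

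Il6 and Tnf rose more modestly. Il6 read 988, 775 and 846 in mature against 207, 297, 268 and 274 in immature thymic cDC1, and 1258, 1879 and 2118 against 396, 535 and 531 in cDC2. It was the only one of the 7 called genes whose level was higher in mature cDC2 than in mature cDC1, with no overlap of the samples. Its log2 fold changes with maturation, 1.73 ± 0.31 (SE, adjusted p = 6.61e-05) and 1.82 ± 0.33 (adjusted p = 1.21e-04), differed by 0.09 with an interval of 2 SE from -0.82 to 1.00. Tnf rose from 998, 1492, 1184 and 1658 to 5361, 4979 and 9036 in cDC1 (log2 2.25 ± 0.20, adjusted p = 4.30e-09) and from 1067, 1048 and 1017 to 3532, 3209 and 3019 in cDC2 (log2 1.64 ± 0.21, adjusted p = 1.92e-06).

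Il10, the inhibitory cytokine of the set, was scarce everywhere. It held 0 to 16 reads in the libraries of the 3 cDC1 groups and 16 to 55 in mature cDC2, where its values were 12.3, 15.3 and 43.2 against 9.61, 4.69 and 1.56 in immature thymic cDC2. These 2 groups did not overlap, yet the log2 difference of 1.98 ± 0.98 (SE) had an adjusted p of 0.107 and was not called. Il12a, the p35 chain, had 0 reads in every splenic library and in every immature thymic cDC2 library, which allows up to 3 reads per library, then 1 to 9 reads in immature thymic cDC1, 2 to 12 in mature cDC1 and 8 to 11 in mature cDC2. Il23a, the p19 chain, ranged from 0 to 40 reads, and each group overlapped its neighbours in the order of means.

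Markers of other cells moved with maturation as well. All 8 T cell markers were higher in mature than in immature thymic cells of both subsets, and their summed level went from 187 to 258 up to 1369 to 2584 in cDC1 and from 187 to 305 up to 829 to 1366 in cDC2. The macrophage markers went from 983 to 1264 up to 5861 to 8532 in cDC1, of which Vcam1 alone made 6739.5 ± 1137 (SD, n = 3). Mertk was also higher there (log2 2.24), while 3 of the 7 were lower. In cDC2 the macrophage markers summed to 7257 to 10987.5 in immature and 5721 to 19295 in mature cells, with 1 of 7 higher and 1 lower. The thymic epithelium markers went from 536 to 671 up to 1701 to 2311 in cDC1. There 1 of 4 was higher, Aire (log2 7.71), and 1 lower, Epcam (-1.94). In cDC2 the thymic epithelium markers summed to 3423 to 3791 in immature and 3328 to 4532 in mature cells. Aire (6.40) and Psmb11 (3.06) were higher there and Epcam (-3.19) lower. The monocyte markers summed to 1333 to 2315 in immature and 31.2 to 178 in mature cDC1, and to 11101 to 12893 and 310 to 1116 in cDC2, with 2 of 3 lower in each subset. Their part in the cytokine values was not tested, and in bulk samples more cells of a type cannot be told apart from more RNA per cell. All mature libraries were run in lane 8, and within lane 8 alone the same 7 members were called in each subset.

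**Figure D2:**
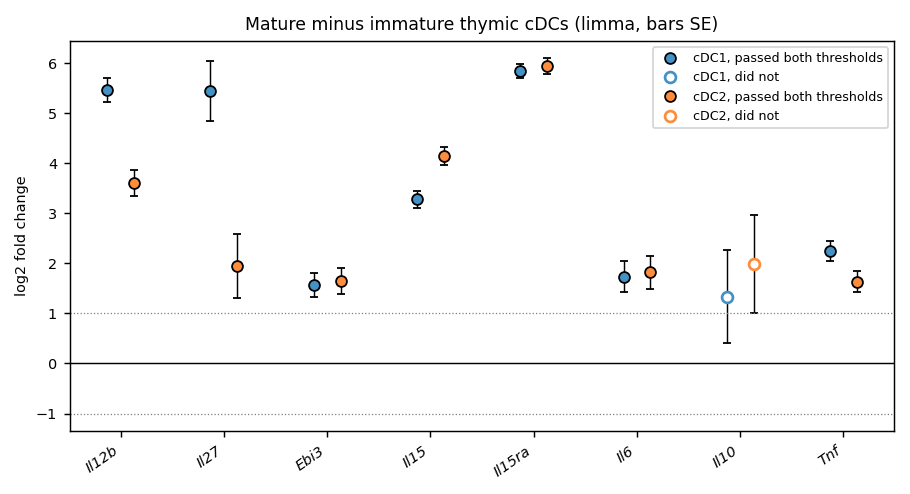
The log2 fold change of mature over immature thymic cells (y axis) is plotted for the 8 tested genes (x axis) in cDC1 (blue) and cDC2 (orange); bars are SE, filled points passed both thresholds and dotted lines mark a log2 fold change of 1 in either direction. Il12b at 5.47 and Il27 at 5.44 in cDC1 stand above their cDC2 values of 3.61 and 1.94, whereas the points of Il15ra, Ebi3 and Il6 lie side by side.

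The next question was whether maturation acted differently in cDC1 and cDC2, which was tested as the difference between both effects. Il12b and Il27 rose less in cDC2 than in cDC1, by -1.86 ± 0.36 (log2, SE, adjusted p = 0.00143) and -3.50 ± 0.87 (adjusted p = 0.0108). They were the 2 of 8 members called, both with the smaller rise in cDC2, where 13.6% of all genes tested were called in either direction and the median difference of all genes was 0.11. Il15 rose more in cDC2, by 0.86 ± 0.24 (adjusted p = 0.0202), which stayed under the fold threshold. For Tnf the difference was -0.61 ± 0.29 (adjusted p = 0.174), and for Il15ra it was 0.09 with an interval of 2 SE from -0.33 to 0.52.

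In mature cells Il12b was 15.6-fold and Il27 26.4-fold lower in cDC2 than in cDC1 (log2 -3.97 ± 0.26, adjusted p = 3.24e-09, and -4.72 ± 0.64, adjusted p = 1.75e-05). These 2 of 8 members were called lower and 0 higher, where 4.36% of all genes were lower and 14.6% higher and the median of all genes stood at 0.14. Il15ra (-0.86 ± 0.15, adjusted p = 3.95e-04), Tnf (-0.94 ± 0.21, adjusted p = 0.00255) and Il6 (0.98 ± 0.33, adjusted p = 0.0365) passed the adjusted p but not the fold threshold. Without mature thymic cDC1 replicate 1, Il6 and Tnf passed both and the count was 4.

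The p35 and p40 chains and the p28 and EBI3 chains must pair, so their mRNAs were set against each other as normalized reads per kilobase of exon. In mature thymic cDC1 the 3 samples held 1691 to 9476 times more Il12b than Il12a per kilobase, and in mature cDC2 222 to 624 times more. These ratios rest on 2 to 12 reads of Il12a per library, so the order between the subsets depends on few reads. For IL-27, Ebi3 exceeded Il27 54.1-fold in immature thymic cDC1 but 3.44-fold in mature thymic cDC1 (geometric means), as the log2 ratio of Il27 over Ebi3 went from -5.76 ± 0.76 (SD, n = 4) to -1.78 ± 0.64 (n = 3). In cDC2 it went from -6.48 ± 0.43 to -6.01 ± 0.23 (n = 3 each), and the 3 mature cDC1 samples lay above every other sample.

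The ratio of Il15 to Il15ra was also lower in mature than in immature thymic cells. Per kilobase, the log2 ratio of Il15 over Il15ra was 2.17 ± 0.37 (SD, n = 4) in immature and -0.40 ± 0.11 (n = 3) in mature thymic cDC1, and 1.93 ± 0.13 in immature and 0.12 ± 0.12 in mature thymic cDC2 (n = 3 each). In the spleen it was 2.13 ± 0.34 (n = 4) in cDC1 and 0.59 ± 0.25 (n = 3) in cDC2. With the length of the longest transcript in place of all exons, each ratio was lower, at -0.57 in mature cDC2 and -0.11 in splenic cDC2, so which of these genes is the more abundant in those 2 groups depends on the length used. On the scale of reads per kilobase, mature thymic cDC1 held 24120.5 of Il12b, 3940.5 of Tnf, 3261 of Il15ra, 2476 of Il15, 2442 of Ebi3, 720.5 of Il27 and 358 of Il6.

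**Figure D3:**
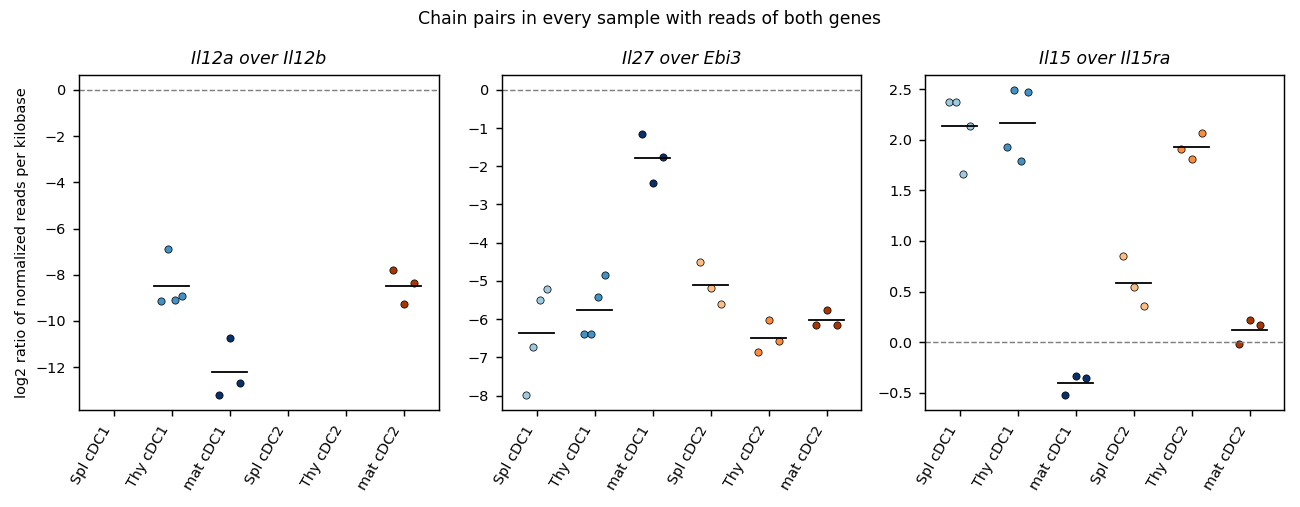
Each panel plots the log2 ratio of normalized reads per kilobase of exon for 1 pair of chains (y axis) in the 6 groups (x axis); points are samples with reads of both genes, black lines are means and the dashed line marks equal levels. Il27 over Ebi3 rises to -1.78 in mature thymic cDC1 and stays at -6.01 in mature thymic cDC2, and Il15 over Il15ra falls from 2.17 to -0.40 in thymic cDC1.

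The comparison of thymic with splenic immature cells asked what differs by tissue among cells sorted as immature. Il6 stood out, with higher levels in the thymus in both subsets, and Il12b was higher in thymic cDC2. In cDC1, 1 of the 8 members was higher in the thymus and 0 were lower, where 4.26% of all genes were higher and 4.52% lower. In cDC2, 2 were higher (Il6 and Il12b) and 1 was lower (Il27), against 8.30% and 5.87% of all genes. Il15 (0.91 ± 0.17, limma adjusted p = 7.54e-04), Tnf (-0.59 ± 0.21, 0.0506) and Il15ra (-0.43 ± 0.15, 0.0571) passed only the adjusted p in cDC2. Il15 reached 1.00 and was called without immature thymic cDC2 replicate 1. In cDC1, Il15 (0.45 ± 0.15, 0.0586), Il15ra (0.41 ± 0.13, 0.0494) and Il12b passed only the adjusted p.

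Il6 read 207, 297, 268 and 274 in thymic against 34.0, 38.5, 15.7 and 45.5 in splenic cDC1, and 396, 535 and 531 in thymic against 10.1, 6.25 and 11.4 in splenic cDC2. The tissues did not overlap in either subset, and the order of the subsets was opposite, with cDC1 above cDC2 in the spleen and cDC2 above cDC1 in the thymus. The log2 differences were 3.02 ± 0.29 (SE, adjusted p = 2.29e-07) in cDC1 and 5.60 ± 0.33 (adjusted p = 2.49e-10) in cDC2, or 8.09-fold and 48.5-fold. The tissue effect of Il6 was larger in cDC2 by 2.58 ± 0.44 (adjusted p = 8.92e-04), and within lane 8 alone the estimate was 2.10 (adjusted p = 0.169). Lane 8 held a single splenic cDC2 sample, so there the spread came from the other groups, which it was assumed to share, and the tissue effects were 3.33 in cDC1 and 5.43 in cDC2.

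Il12b read 888, 558, 424 and 492 in splenic cDC1, where the thymic samples lay between 971 and 1119.7, and 48.5, 60.6 and 48.9 in splenic cDC2, where the thymic samples lay between 218 and 297. The tissues did not overlap, but only the cDC2 difference of 2.19 ± 0.26 (log2, SE, adjusted p = 3.21e-06) passed the fold threshold, beside 0.89 ± 0.22 (adjusted p = 0.00974) in cDC1. Il12b in cDC1 passed it without immature splenic cDC1 replicate 1 (1.10) and within lane 8 alone (1.18). Il27 was lower in thymic than in splenic cDC2, at 4.27, 8.04 and 6.23 against 32.0, 14.4 and 19.6, a log2 difference of -1.64 ± 0.64 (adjusted p = 0.0768). This call rested on 4 to 35 reads per library. It was lost without replicate 1 or 3 of either cDC2 group (-1.68 to -1.34) and within lane 8 alone (-1.35). Apobr, whose exons overlap those of Il27, was also lower in thymic than in splenic cDC2, at 2259 ± 78.7 against 3751 ± 816 (SD, n = 3 each). Reads of the shared stretch cannot be assigned here either.

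Of all 8 members, Il12b, Il6 and Tnf were called for a different tissue effect in cDC2 and cDC1, against 4.98% of all genes in either direction. The difference was 1.30 ± 0.34 (log2, SE, adjusted p = 0.0293) for Il12b and -1.02 ± 0.28 (adjusted p = 0.0356) for Tnf, which stood at 1841, 1252 and 1693 in splenic and 1067, 1048 and 1017 in thymic cDC2. For Il15ra it was -0.84 ± 0.20 (adjusted p = 0.0182), under the fold threshold. Within lane 8 alone, with its single splenic cDC2 sample, the differences were 1.18 for Il12b (adjusted p = 0.413), 2.10 for Il6 (adjusted p = 0.169) and -1.30 for Tnf (adjusted p = 0.179), and none was called. The Tnf call over all samples lay so near the fold threshold that leaving out any 1 of 6 samples, immature splenic cDC1 replicate 1 or 3, immature splenic cDC2 replicate 1 or 3 or immature thymic cDC1 replicate 2 or 4, took it to between -0.99 and -0.91 and ended it, as did averaging immature thymic cDC1 replicates 3 and 4, which share a number in the labels (-0.99).

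Other cell types' markers differed by tissue too. In cDC2 the monocyte markers summed to 11101 to 12893 in the thymus and 2065 to 3026 in the spleen, the pDC markers to 7086 to 8010 and 2304 to 3419, and the thymic epithelium markers to 3423 to 3791 and 94.3 to 156. The macrophage markers of cDC2 summed to 7257 to 10987.5 in the thymus and 6065 to 7215 in the spleen. Of these 7, 3 were called higher (C1qa, C1qb and C1qc) and 0 lower in cDC2, and 0 were called in cDC1. In cDC1 the thymic epithelium markers summed to 536 to 671 in the thymus and 55.2 to 79.3 in the spleen, with 2 of 4 called higher. T cell markers were higher in the thymus, 7 of 8 in cDC1 and 5 of 8 in cDC2, and B cell markers were lower, at 106 to 139 against 566 to 984 in cDC1. Among the mature DC markers, 2 of 5 were called higher in the thymus in cDC1 and 3 of 5 in cDC2, with 0 lower. Over all genes, 4.26% and 8.30% were higher. Ccl22 (log2 2.79 and 6.24) and Socs2 (1.79 and 5.04) were called in both subsets and Fscn1 (2.56) in cDC2. Ccr7 and Cd83 were not called in either subset. The part of all these markers in the tissue differences was not tested.

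**Figure D4:**
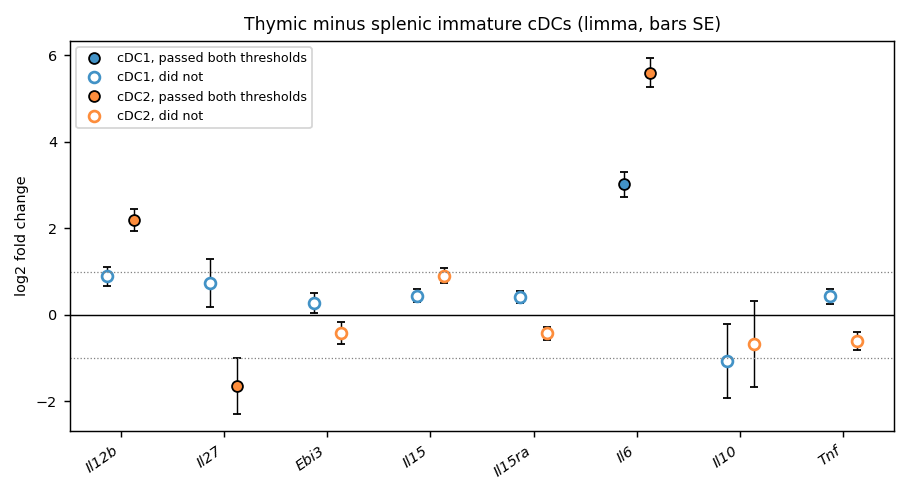
The log2 difference of thymic minus splenic immature cells (y axis) is plotted for the 8 tested genes (x axis) in cDC1 (blue) and cDC2 (orange), with SE bars, filled points for genes past both thresholds and dotted lines at a log2 fold change of 1. Il6, at 3.02 in cDC1 and 5.60 in cDC2, lies above all other genes.

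The cDC subsets also differed among cells sorted as immature. In the spleen 3 of 8 members were lower in cDC2 than in cDC1 and 0 higher, where 6.70% of all genes were lower and 9.93% higher. Il12b was lower by -3.41 ± 0.24 (log2, SE, adjusted p = 1.10e-09), Il15 by -1.65 ± 0.16 (adjusted p = 1.29e-07) and Il6 by -1.69 ± 0.31 (adjusted p = 2.90e-04). Il15 read 145, 134 and 122 in splenic cDC2 against 465, 452, 339.9 and 442 in splenic cDC1, with no overlap. Tnf went the other way, by 0.69 ± 0.20 (limma adjusted p = 0.0117), and passed the adjusted p but not the fold threshold. Within lane 8 alone, where the single cDC2 sample was assumed to vary like the other groups, Il6 stood at -1.17 (adjusted p = 0.178).

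In the immature thymus 2 of 8 members were lower in cDC2 and 0 higher, where 5.42% of all genes were lower and 11.0% higher. They were Il12b (-2.11 ± 0.24, adjusted p = 1.22e-06) and Il15 (-1.19 ± 0.16, adjusted p = 1.07e-05). Il15ra (-0.95 ± 0.14, adjusted p = 4.14e-05), Ebi3 (-0.63 ± 0.24, adjusted p = 0.0660) and Il6 (0.89 ± 0.31, adjusted p = 0.0435) passed the adjusted p but not the fold threshold. Thus Il12b was called lower in cDC2 than in cDC1 in all 3 settings, and its mean level fell in the order mature thymic cDC1, mature thymic cDC2, immature thymic cDC1, immature splenic cDC1, immature thymic cDC2 and immature splenic cDC2 with no overlap between neighbours. Macrophage markers differed between subsets too, with 6 of 7 higher in cDC2 and 0 lower in each setting. Their median log2 was 3.26 in splenic, 4.67 in immature thymic and 5.34 in mature thymic cells. Of 3 monocyte markers, 1, 2 and 2 were higher and 0 lower. Of 4 pDC markers tested, 3 were lower in splenic cDC2. Over all genes, 9.93%, 11.0% and 14.6% were higher. The part of these markers in the subset differences was not tested.

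The order of the 6 groups differed between genes. For Il6 no neighbours overlapped either, with mature cDC2 first (1752 ± 444, SD, n = 3), then mature cDC1 (869.5 ± 109, n = 3), immature thymic cDC2 (487 ± 79.1, n = 3), immature thymic cDC1 (262 ± 38.6, n = 4), splenic cDC1 (33.4 ± 12.7, n = 4) and splenic cDC2 (9.24 ± 2.68, n = 3). For Tnf the mature groups led, at 6458 ± 2240.1 in cDC1 and 3253 ± 259.7 in cDC2. The 4 immature groups, between 976 and 1595, overlapped their neighbours in the order of means, although every splenic cDC2 sample lay above every splenic cDC1 sample. For Il27 the 5 groups below mature cDC1 all overlapped their neighbours, between 6.18 and 26.6. For Ebi3 the 4 immature groups overlapped their neighbours in the order of means, although every immature thymic cDC1 sample lay above every immature thymic cDC2 sample.

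Across the 20 samples, Il15 and Il15ra were the 2 members most alike by Pearson's r (0.953, with rho = 0.877, log2 scale), and Il12b and Il15 by rho (0.985, with r = 0.927). The genes outside the set most like each member, among those with a mean of at least 100, were Myb (r = 0.980) and Gramd3 (0.977) for Il12b, Net1 (0.990) and Poglut1 (0.986) for Il15, Gli3 (0.991) and Mtf1 (0.990) for Il15ra, and Kif1a (0.972) and Tbata (0.963) for Il6. For Ebi3 they were AU040320 (0.972) and Aspscr1 (0.971), for Tnf Josd1 (0.963) and Otud5 (0.954), for Il27 Mettl17 (0.941) and Fbxw10 (0.909), and for Il10 Ano8 (0.805) and Nav1 (0.786). These values describe samples that share groups and libraries, so a gene with 2 levels, low in immature and high in mature cells, can reach them.

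The receptor chains for these cytokines were measured in the same cells. Of 12 chains, 5 were higher and 2 lower in mature than in immature thymic cDC1, with a median log2 of 1.17, and 3 were higher and 2 lower in cDC2, with a median of 0.24. Over all genes tested, 21.3% were higher and 24.5% lower in cDC1, and 18.6% and 17.0% in cDC2, so the cDC2 counts lay near the background. Il23r, the chain specific to IL-23, went from at most 4 reads per library in immature cells to 899.6 ± 99.3 (SD, n = 3) in mature cDC1 and 528 ± 101 (n = 3) in mature cDC2, while its partner Il12rb1 reached 16.5 ± 7.09 and 10.4 ± 8.81. The TNF receptors went opposite ways in both subsets. Tnfrsf1b rose from 862 ± 47.2 to 17557 ± 5526 in cDC1 and from 3569 ± 90.3 to 26297 ± 4695 in cDC2, and Tnfrsf1a fell from 2412 ± 110.1 to 686 ± 96.5 and from 2711 ± 109 to 479.9 ± 151. Il6ra, which binds IL-6, also fell, by 4.62 and 2.99 on the log2 scale.

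IL-15 signals through Il2rb and Il2rg. Il2rg rose from 218 ± 61.7 (SD, n = 4) to 3290.2 ± 47.6 (n = 3) with maturation of thymic cDC1 and read 2829 ± 575 in immature and 3360.4 ± 474 in mature thymic cDC2 (n = 3 each). Il2rb had its highest mean in splenic cDC2, at 63.2 ± 13.4 (n = 3), and was at 10.1 or below in every other group. The NK cell markers also summed highest in splenic cDC2, at 11.4 to 49.98. Their part in the Il2rb value, which is among the splenic subset calls given below, was not tested. Il10ra, which binds IL-10, had group means between 5965 and 12148 in cells whose Il10 mean did not exceed 23.6. Between subsets, 6 of the 12 chains were higher in splenic cDC2 than in splenic cDC1 and 0 lower, where 9.93% of all genes were higher and 6.70% lower, among them Il27ra (2.53 ± 0.47, adjusted p = 3.07e-04) and Il6st (1.17 ± 0.18, adjusted p = 3.32e-05), the shared chain of the IL-6 and IL-27 receptors.

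**Figure D5:**
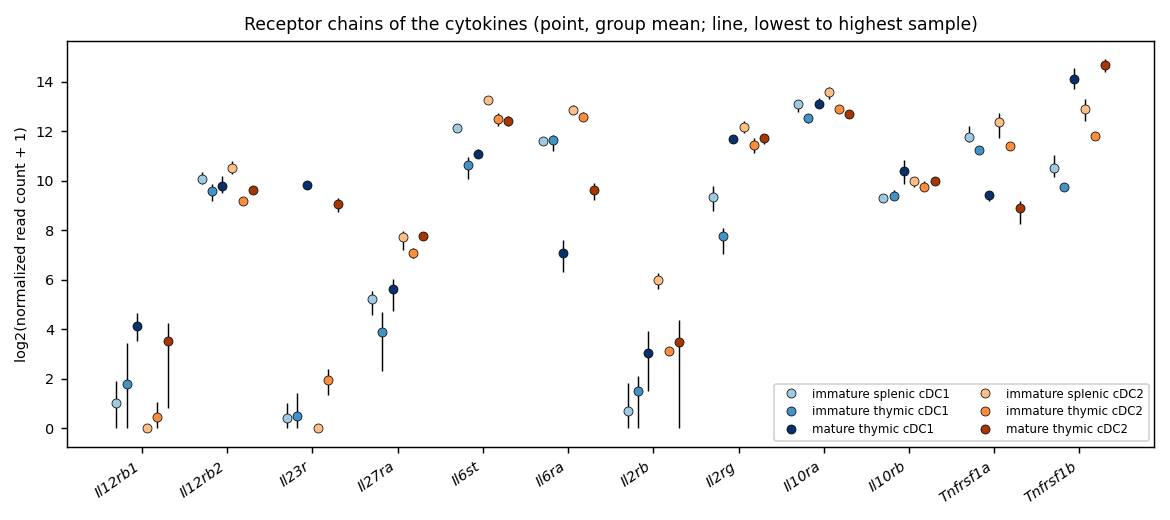
The log2 of the normalized read count plus 1 (y axis) is plotted for 12 receptor chains (x axis), with a point for the mean of each of the 6 groups and a line from its lowest to its highest sample. Il23r has points near the bottom in immature groups and at 899.6 and 528 before the log in mature cDC1 and cDC2, and Tnfrsf1a and Tnfrsf1b move in opposite directions with maturation.

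Regulators tied to these cytokine genes were looked at in the same contrasts. Of 10, 5 were higher and 0 lower in mature than in immature thymic cDC1 (median log2 1.25), and 4 were higher and 0 lower in cDC2 (0.57), where 21.3% of all genes were higher and 24.5% lower in cDC1 and 18.6% and 17.0% in cDC2. Irf1, an interferon response factor, rose by 5.04 ± 0.17 in cDC1 and 3.00 ± 0.18 in cDC2 (log2, SE), and Rel, an NF-kB subunit, by 1.78 ± 0.26 and 1.07 ± 0.28. Irf8, a factor of the cDC1 lineage, rose in cDC2 from 2467 ± 655 to 13787 ± 3146 (SD, n = 3 each) and stood at 54208 ± 3833 (n = 4) in immature and 34273 ± 1504 (n = 3) in mature thymic cDC1. Of 6 genes for cytokine release, mRNA decay or the control of NF-kB signalling, 3 were higher in mature cDC1 and 1 in mature cDC2, the latter near the 18.6% of all genes called higher there. Tnfaip3, an inhibitor of NF-kB signalling, was called in both, and no gene for release or mRNA decay was called in cDC2. Rhbdf2, which helps the TNF-shedding protease ADAM17, was called in cDC1, from 369 ± 78.1 to 1796 ± 534, whereas Adam17 itself was not called.

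Other cytokines read by T cells were counted in the same way. Of 12 listed, 6 were tested, and with maturation 2 were higher and 4 lower in cDC1 (median log2 -2.93), and 1 higher and 3 lower in cDC2 (-1.45), beside the same shares of all genes. Il1b fell from 6179 ± 963 (SD, n = 4) to 649 ± 215 (n = 3) in cDC1 and from 37195 ± 634 to 3923 ± 1608 in cDC2 (n = 3 each). Tgfb1 and Il16 fell in both subsets and Il18 in cDC1, from 742 ± 101 to 75.3 ± 53.5. Il7, a survival factor for developing T cells, rose to 68.3 ± 31.3 in mature cDC1 and 117 ± 28.6 in mature cDC2. Of 8 further ligands and subunits of the IL-6 and IL-12 family, 5 were tested, with 1 higher and 1 lower in each subset. These counts lay near the shares of all genes, 21.3% higher and 24.5% lower in cDC1 and 18.6% and 17.0% in cDC2. Osm, which encodes oncostatin M, went up in cDC1 from 30.7 ± 6.00 to 700.0 ± 229 and down in cDC2 from 3222 ± 467 to 1410.4 ± 372.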

How the data were processed

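RNA from sorted cDCs was sequenced as stranded mRNA libraries. Reads were trimmed (Cutadapt), mapped by STAR 2.6 against mm10 and assigned to ENSEMBL genes by HTSeq-count. The authors then divided the counts by DESeq2 1.24.0 size factors, and the deposited values are these normalized read counts (a signal per gene, 1 column per library). Whether counting used strand is not given in the sources used here. Dividing each library by its smallest step gave whole reads for 100% of values (tolerance 0.05), 14266867 to 40119669 per library, and intervals and floors from them cover counting error only.

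Splenic cDC1 replicates 4 and 5 entered as their mean (chi-square per degree of freedom 2.44, against 25.0 to 176 for other pairs of that group). Genes at 10 or more in at least 3 of 20 samples (14970) were fitted with limma-trend 3.58.1 (R 4.3.3) on log2(value + 1), which understates changes of low genes, with 1 mean per group. Calls needed a Benjamini-Hochberg adjusted p below 0.1 over all genes tested and an absolute log2 fold change above 1, both tests being two-sided. The script was tested on simulated data. As alternatives, edgeR 4.0.16 and DESeq2 1.42.0 were run on the recovered reads. For maturation of cDC1, edgeR called 6732 genes and limma 6848, and for the tissue effect in cDC1, 1361 and 1313. Other alternatives changed the pseudocount, filter, scaling, lane, replicate block and samples.

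Gene positions and exon lengths came from GENCODE M21 (37607 of 37734 identifiers found), and promoters from RefSeq. The 10 genes, the other lists and the genes named were chosen with earlier results of these data known. Named were all members, genes of the fixed lists, and the 2 genes most correlated with each member among genes with a mean of at least 100.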

Additional observations from a re-analysis of the deposited data

Results flagged for a closer look

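In 19 sets of 4 samples of 1 gene, 3 had a highest value far from the others by Dixon's criterion. They were Il12a in immature thymic cDC1 replicate 2 (7.50 normalized reads), Il23a in the same library (7.50), and Il23a in the mean of splenic cDC1 replicates 4 and 5 (0.955, with the other samples at 0). All rest on 9 reads or fewer, and neither gene was tested.

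The maturation effect differed between cDC2 and cDC1 for Il12b (log2 -1.86, limma adjusted p = 0.00143), Il27 (-3.50, adjusted p = 0.0108) and Il15 (0.86, adjusted p = 0.0202). The tissue effect differed between cDC2 and cDC1 for Il6 (2.58, adjusted p = 8.92e-04), Il12b (1.30, adjusted p = 0.0293), Tnf (-1.02, adjusted p = 0.0356) and Il15ra (-0.84, adjusted p = 0.0182).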

How the results depend on the processing

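Of 72 log2 fold changes of the 8 tested genes, 30 were called, and 25 of these kept their call and direction under every alternative run. Among 627 alternative values of called results, 19 lost the call and 0 changed sign. The cause was not tested where a call changed. The Il27 tissue call in cDC2 was lost under 7 settings (-1.78 to -1.34) and the Tnf tissue difference under 9 (-1.30 to -0.91). The count for tissue in cDC1 went from 1 to 2 with no filter on low values (Il12a then entered), to 2 within lane 8 alone and to 4 with no fold threshold. With no fold threshold the count went from 3 to 6 for tissue in cDC2, from 2 to 5 between immature thymic subsets and from 2 to 5 between mature subsets. Within lane 8 alone the count of tissue differences between subsets went from 3 to 0, with fewer samples in that fit and 1 splenic cDC2 sample assumed to vary like the others. Leaving out each sample in turn gave 7 to 8 calls for maturation in cDC1 and in cDC2, 2 to 2 for the maturation difference, 1 to 2 for tissue in cDC1 (2 without immature splenic cDC1 replicate 1), 2 to 3 for tissue in cDC2, 2 to 3 for the tissue difference, 3 to 4 between splenic subsets, 2 to 3 between immature thymic subsets and 2 to 4 between mature subsets (4 without mature thymic cDC1 replicate 1).

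Signs changed only among values that were not called and among ratios. Within lane 8 alone Il27 became -0.13 for tissue in cDC1 and -0.029 between splenic subsets, and the maturation difference of Il15ra -0.031. With each sample left out in turn, Ebi3 between splenic subsets ranged from -0.15 to 0.29 (-0.07 without immature splenic cDC1 replicate 1), the maturation difference of Ebi3 from -0.11 to 0.22, that of Il6 from -0.065 to 0.31 and that of Il10 from -0.49 to 1.40, and the tissue difference of Il10 from -0.11 to 1.05. With DESeq2 the maturation difference of Il10 was -0.014. With the length of the longest transcript, Il15 over Il15ra became -0.11 in splenic cDC2 and -0.57 in mature thymic cDC2, and 1.44 and 1.47 in immature splenic and thymic cDC1, -1.10 in mature thymic cDC1 and 1.23 in immature thymic cDC2.

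The labels' own sample numbers, which differ from the replicate numbers used here, were not used to pair the samples in the main fit. Splenic cDC1 replicates 1, 4 and 5 share 1 number, as do immature thymic cDC1 replicates 3 and 4. The latter number is also that of mature thymic cDC1 replicate 1. Pairing was looked at between subsets only, so pairs of mature with immature libraries were not checked. Deviations of same-numbered libraries correlated between -0.0781 and 0.461 in the spleen and between -0.150 and 0.276 in the immature thymus. The same-numbered mature pair stood at -0.122. Some samples correlated best with their own number and others did not, so these values do not settle whether the numbers mark pairs. A fit with that number as a replicate block called 3 members between splenic and 2 between immature thymic subsets, the same counts as without it. Depth limited Il12a, Il23a and Il10, at 55 reads per library or fewer. Il10 passed for maturation of cDC2 under some settings only (adjusted p from 0.0197 to 0.358).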
